A study of Mus musculus with 4 samples.

Results

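The genes described here handle cholesterol and neutral lipid after uptake: the lipid droplet genes Plin2, Soat1 and Pnpla2, the lysosomal export genes Lipa, Npc1 and Npc2, the liver X receptor (LXR) genes Nr1h2 and Nr1h3, and the LXR-regulated genes Mylip and Lpcat3. They were chosen as a list of 10 named genes for these roles, with earlier results of these data known, and all 10 were found by symbol among the 52636 Ensembl genes of the deposited files. RNA was sequenced from sorted cells of the corpus callosum, the white matter bridge between the brain's hemispheres, in mice labelled Mertk_KO that had eaten chow with 0.2% cuprizone for 4 weeks. AnnexinV-positive cells (2 libraries), which the series calls dying, were set against AnnexinV-negative cells (2 libraries), which it calls living. Both groups carry the Mertk knockout and both had the cuprizone diet, so neither a wild-type nor an untreated group enters the comparison. The labels give no strain, age or sex, and do not state whether a group's 2 libraries are from different animals; the p-values therefore reflect only how far these libraries spread, which may be technical. Annexin V binds phosphatidylserine on the outer face of the plasma membrane, and cuprizone is a copper chelator that kills oligodendrocytes.

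Cholesterol esters that phagocytes take up with myelin are split in lysosomes by acid lipase, and NPC2 and NPC1 pass the free cholesterol out of the lysosome. SOAT1 re-esterifies surplus cholesterol at the endoplasmic reticulum for storage in droplets, which PLIN2 coats. Oxysterols made from the surplus bind LXR, a nuclear receptor that works as a dimer with RXR and turns on genes of sterol efflux and lipid remodelling. In the demyelinated brain, microglia, the resident macrophages, are the cells best known for this work.

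Values are RPKM, reads scaled by gene length and library depth, so levels of different genes can be compared. In units of 1000 reads, depth in genes was about 67447 and 60129 in the AnnexinV-positive libraries and 50527 and 43247 in the AnnexinV-negative libraries, and each of the 10 genes had at least 2861 reads in every library apart from Nr1h3, which had 64 to 160. Mertk itself was read at 62.6 and 53.6 RPKM in AnnexinV-positive and 18.8 and 29.9 in AnnexinV-negative libraries; a whole-gene value does not separate deleted from remaining exons, and every library has the knockout label, so it does not check the genotype. Markers of mature oligodendrocytes were lower in AnnexinV-positive libraries in 15 of 15 genes, summing to an RPKM of 87.4 to 103 against 622 to 1111, and markers of homeostatic microglia were higher in 14 of 14, summing to 5616 to 5684 against 2197 to 2701. Of 10 border macrophage markers 3 were tested and were higher, with sums of 17.9 to 18.1 against 5.88 to 7.08. Of 12 monocyte and neutrophil markers 4 were tested, with a median log2 fold change of -1.98: Csf3r was higher (1.19), S100a8 (-4.52) and S100a9 (-4.54) were lower, and Fn1 (0.56) did not pass. That list summed to 84.1 in each AnnexinV-positive library and to 50.7 and 70.6 in the AnnexinV-negative libraries, mostly from Csf3r and Fn1, while S100a8 was at 0.0208 and 0.167 RPKM in AnnexinV-positive and 7.30 and 2.19 in AnnexinV-negative libraries. Among astrocyte markers 9 of 11 were lower. No member of these marker lists had a mean under 0.1 RPKM over the 4 libraries.

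Of the 9 genes that could be tested, 7 were higher in AnnexinV-positive cells: Npc2, Mylip, Plin2, Soat1, Lipa, Lpcat3 and Pnpla2, by 1.74-fold to 2.42-fold in mean RPKM. Npc1 and Nr1h2 did not pass the test, and Nr1h3, below an RPKM of 1 in every library, was not tested. No gene was lower (limma, p adjusted by Benjamini and Hochberg's method over the 10927 genes that reached 1 RPKM in 2 libraries, threshold 0.05), and 0 were lower at an unadjusted p under 0.05. Over all genes tested, 30.8% were higher and 9.26% lower by the same rule. Without AnnexinV-positive replicate 1 the 4 genes Plin2, Npc2, Lipa and Mylip were higher, and without AnnexinV-positive replicate 2 the 4 genes Plin2, Npc2, Soat1 and Mylip. Of all genes tested, 16.0% were higher without the first and 11.9% without the second. The 9 genes had a median log2 fold change of 0.98, against 0.45 for all genes tested. In all 9 the lower AnnexinV-positive library stood above the higher AnnexinV-negative library, as it did for 60.9% of all genes tested. Fold changes were computed on log2(RPKM + 0.1), AnnexinV-positive minus AnnexinV-negative. In bulk RNA, fewer cells of a type and less RNA per cell cannot be told apart.

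**Figure D1:**
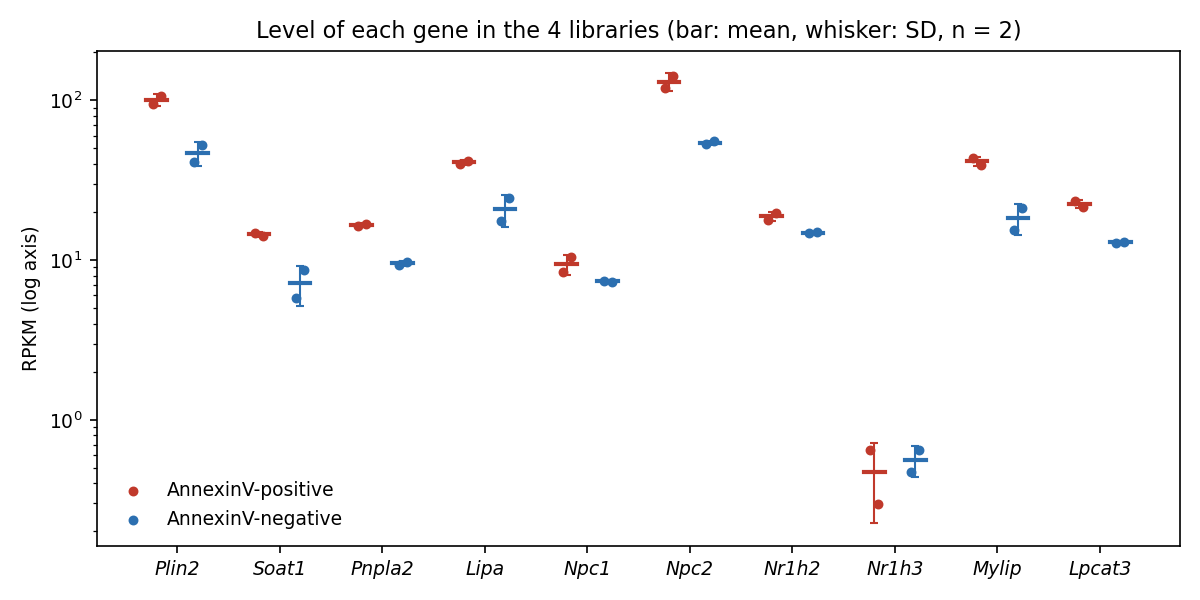
RPKM (log axis) of each of the 10 genes in the 2 AnnexinV-positive (red) and 2 AnnexinV-negative (blue) libraries; points are libraries, bars means and whiskers SD. The groups are apart for 9 genes, by the most for Npc2, and overlap for Nr1h3, whose 4 values lie between 0.297 and 0.648.

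The order of the genes by level was nearly the same in both groups. Npc2 stood first and Plin2 second in each of the 4 libraries, at or above the 97.3rd percentile of the genes tested in both groups. Lipa and Mylip followed and did not differ beyond their spread in AnnexinV-positive cells, where Lipa averaged 40.8 ± 1.23 and Mylip 41.4 ± 2.80 RPKM, nor in AnnexinV-negative cells, where they averaged 20.9 ± 4.77 and 18.3 ± 4.03 RPKM (SD, n = 2 each). Lpcat3, Nr1h2 and Pnpla2 formed the middle, with Nr1h2 below Lpcat3 in both AnnexinV-positive libraries and above it in both AnnexinV-negative libraries. Soat1 and Npc1 came next, and in AnnexinV-negative cells their means of 7.20 ± 2.02 and 7.36 ± 0.0783 RPKM did not differ beyond their spread. Nr1h3 was last in every library.

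Promoter sequences of the 3 genes with the largest increase, Npc2, Mylip and Plin2, and of the LXR gene Nr1h2, which did not pass the test, are shown so that the start regions of genes that moved together can be read beside one without a call. They are RefSeq windows on GRCm38.p6, from 250 bases before to 50 bases after the gene's start, written 5′ to 3′ on the gene's strand, with capitals marking the letters of a searched motif. RefSeq windows of 9 of the 10 genes were searched, and that of Npc1 was not.
Npc2 (chr12:84773063-84773362, minus strand): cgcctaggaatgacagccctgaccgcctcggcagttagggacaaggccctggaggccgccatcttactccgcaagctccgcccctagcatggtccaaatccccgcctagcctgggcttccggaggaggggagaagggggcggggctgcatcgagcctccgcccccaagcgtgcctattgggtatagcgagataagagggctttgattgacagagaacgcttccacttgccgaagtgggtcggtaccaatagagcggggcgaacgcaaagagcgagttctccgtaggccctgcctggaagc
Mylip (chr13:45389492-45389791, plus strand): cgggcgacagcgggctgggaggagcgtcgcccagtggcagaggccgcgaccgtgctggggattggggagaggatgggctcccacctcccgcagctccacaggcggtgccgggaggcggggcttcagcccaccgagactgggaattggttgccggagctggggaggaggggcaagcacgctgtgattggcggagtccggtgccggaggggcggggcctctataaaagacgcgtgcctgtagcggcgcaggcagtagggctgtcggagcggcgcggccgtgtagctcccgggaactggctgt
Plin2 (chr4:86670010-86670309, minus strand): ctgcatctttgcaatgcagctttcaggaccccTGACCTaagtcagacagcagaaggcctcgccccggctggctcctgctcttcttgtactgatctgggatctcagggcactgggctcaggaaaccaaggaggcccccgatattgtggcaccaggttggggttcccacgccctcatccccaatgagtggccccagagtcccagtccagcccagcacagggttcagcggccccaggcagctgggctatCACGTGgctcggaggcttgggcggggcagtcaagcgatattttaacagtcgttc
Nr1h2 (chr7:44553916-44554215, minus strand): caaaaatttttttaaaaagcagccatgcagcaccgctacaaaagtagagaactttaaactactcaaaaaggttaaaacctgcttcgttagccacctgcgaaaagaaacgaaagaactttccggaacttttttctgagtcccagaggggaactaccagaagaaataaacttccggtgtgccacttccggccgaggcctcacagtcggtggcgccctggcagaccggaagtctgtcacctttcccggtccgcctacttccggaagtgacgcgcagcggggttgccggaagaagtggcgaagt

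Searched on both strands were the LXR direct repeat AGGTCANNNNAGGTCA, the PPAR direct repeat AGGTCANAGGTCA, their hexamer AGGTCA, the lysosomal gene (CLEAR) core TCACGTGA and the E-box CACGTG that this core contains. In the Plin2 window the hexamer lay at bases 33 to 38, on the opposite strand, and the E-box at bases 247 to 252. These were the only matches in the windows of the 9 genes. Of all 32851 mouse windows, 16.3% held the hexamer, 7.15% the E-box, 0.974% the CLEAR core, 0.0396% the PPAR repeat and 0.0152% the LXR repeat. A match is a description of the letters and says nothing of binding, and no match says only that these letters are not in the window. The windows of Npc2, Mylip, Plin2 and Nr1h2 had 62.7%, 71.0%, 60.7% and 50.7% G or C, where the median window had 52.7%.

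Among the lipid droplet genes, Plin2 (chromosome 4, 86648386 to 86670060, minus strand, GRCm38) reached 95.1 and 107 RPKM in the AnnexinV-positive libraries, against 40.9 and 52.2 in the AnnexinV-negative libraries. Both AnnexinV-positive values were above both AnnexinV-negative values, and the log2 fold change was 1.12 (SE 0.20, limma adjusted p 0.00655). Plin2 encodes perilipin 2, the main droplet coat protein of cells other than fat cells. Soat1 (chromosome 1, 156424525 to 156474331, minus strand), the enzyme that esterifies cholesterol, was read at 14.8 and 14.1 RPKM in AnnexinV-positive and 5.77 and 8.63 RPKM in AnnexinV-negative libraries. Its groups did not overlap, the AnnexinV-negative libraries were the more spread pair, and it rose by 1.02 on the log2 scale (SE 0.23, limma adjusted p 0.0146). Without AnnexinV-positive replicate 1 it was at 0.99 and no longer passed (limma adjusted p 0.0518).

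Pnpla2 (chromosome 7, 141455198 to 141460743, plus strand) encodes adipose triglyceride lipase, which starts the breakdown of droplet triglyceride. Its RPKM was 16.3 and 16.8 in AnnexinV-positive cells and 9.26 and 9.78 in AnnexinV-negative cells. Libraries of a group lay close together, and the rise was 0.79 on the log2 scale (SE 0.17, limma adjusted p 0.0129). The call was lost without AnnexinV-positive replicate 1 (limma adjusted p 0.0660) and without AnnexinV-positive replicate 2 (limma adjusted p 0.0920).

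Within each library, Plin2 was read at 5.85 and 6.34 times the RPKM of Pnpla2 in AnnexinV-positive cells and at 4.42 and 5.34 times in AnnexinV-negative cells. Such a ratio is the same on every scaling of the libraries. The ranges did not overlap, but the nearest libraries of the groups differed by less than the AnnexinV-negative libraries did from each other. With 2 libraries against 2, an exact test cannot reach a p of 0.05, so the ratios are given without one.

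The lysosomal genes split. Npc2 (chromosome 12, 84754562 to 84773152, minus strand), the soluble lysosomal protein that binds free cholesterol, had an RPKM of 119 and 143 in AnnexinV-positive and 52.9 and 55.3 in AnnexinV-negative libraries. The AnnexinV-positive values were the higher and the more spread pair, and the log2 fold change of 1.27 was the largest of the 10 genes (SE 0.18, limma adjusted p 0.00383). Lipa (chromosome 19, 34492318 to 34527474, minus strand), lysosomal acid lipase, was at 40.0 and 41.7 RPKM in AnnexinV-positive cells and 17.5 and 24.3 RPKM in AnnexinV-negative cells. It rose by 0.98 on the log2 scale (SE 0.21, limma adjusted p 0.0123). Without AnnexinV-positive replicate 2 the value was 0.95 (limma adjusted p 0.0540).

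Npc1 (chromosome 18, 12189692 to 12236400, minus strand), the membrane protein that takes cholesterol over from NPC2, was read at 8.45 and 10.4 RPKM in AnnexinV-positive cells and 7.41 and 7.30 RPKM in AnnexinV-negative cells. Its groups did not overlap, but the log2 fold change of 0.35 did not pass (limma adjusted p 0.179), with a 95% interval of -0.11 to 0.80. Exons of Npc1 share 601 bases, 5.3% of its exonic length, with Rmc1 and Gm15956, and the library kit does not keep strand.

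Npc2 and Npc1 therefore stood in a different ratio in the 2 groups. Npc2 was read at 14.1 and 13.7 times the RPKM of Npc1 in AnnexinV-positive libraries, against 7.14 and 7.57 times in AnnexinV-negative libraries. The difference of 0.92 on the log2 scale was far larger than the spread of 0.046 between libraries of a group (pooled SD), and it was 0.88 to 0.96 with any library left out. Soat1 stood at 0.370 and 0.338 times the RPKM of Lipa in AnnexinV-positive libraries and at 0.329 and 0.355 times in AnnexinV-negative libraries, so this pair overlapped between the groups.

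**Figure D2:**
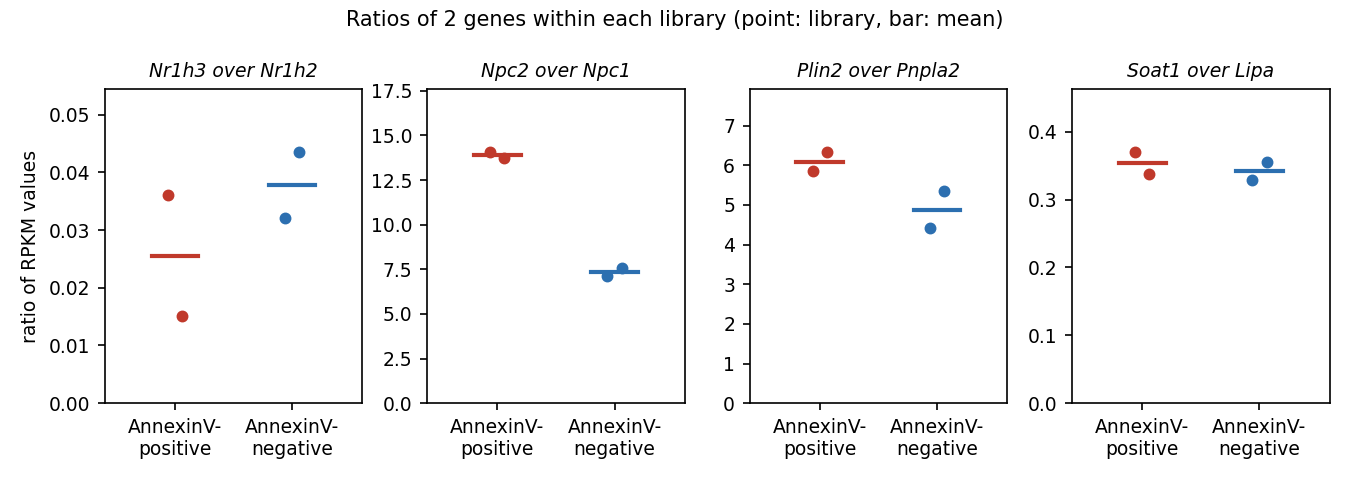
Ratio of the RPKM values of 2 genes within each library (vertical axes start at 0), with AnnexinV-positive libraries in red, AnnexinV-negative libraries in blue and bars for means. Npc2 over Npc1 averages 13.9 in AnnexinV-positive and 7.35 in AnnexinV-negative libraries, while Soat1 over Lipa overlaps.

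The LXR genes themselves showed no call. Nr1h2 (chromosome 7, 44549616 to 44553951, minus strand), which encodes LXR beta, the form found in most tissues, had an RPKM of 17.9 and 19.6 in AnnexinV-positive and 14.7 and 14.9 in AnnexinV-negative libraries. The 4 values lay within a narrow range without overlap, and the log2 fold change of 0.34 did not pass (limma adjusted p 0.151, 95% interval -0.07 to 0.75). Nr1h3 (chromosome 2, 91184061 to 91202834, minus strand), LXR alpha, known from liver, fat and macrophages, was at 0.645 and 0.297 RPKM in AnnexinV-positive and 0.473 and 0.648 RPKM in AnnexinV-negative libraries. Its groups overlapped, with the lowest and the second highest value in AnnexinV-positive libraries. In a test without the minimum level its log2 fold change was -0.27 (limma adjusted p 0.689). Nr1h3 reached 0.0360 and 0.0151 times the RPKM of Nr1h2 in AnnexinV-positive libraries and 0.0321 and 0.0435 times in AnnexinV-negative libraries, overlapping ranges.

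Of the LXR-regulated genes, Mylip (chromosome 13, 45389742 to 45412022, plus strand) encodes the ubiquitin ligase, also called IDOL, that marks lipoprotein receptors such as VLDLR and LRP8 for breakdown. It had an RPKM of 43.4 and 39.5 in AnnexinV-positive cells and 15.5 and 21.2 in AnnexinV-negative cells. Each AnnexinV-positive value was above both AnnexinV-negative ones, and Mylip rose by 1.19 on the log2 scale (SE 0.21, limma adjusted p 0.00655). Lpcat3 (chromosome 6, 124663027 to 124704418, plus strand), which puts polyunsaturated fatty acids into membrane phospholipids, was at 23.3 and 21.6 RPKM in AnnexinV-positive cells and 12.82 and 12.95 RPKM in AnnexinV-negative cells. It rose by 0.80 on the log2 scale (SE 0.17, limma adjusted p 0.0125), but did not pass without AnnexinV-positive replicate 1 (limma adjusted p 0.0862) or replicate 2 (limma adjusted p 0.0627). Exons of Lpcat3 share 334 bases, 10.2% of its exonic length, with Emg1.

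How many of the 9 genes were called depended on the scale of the libraries, since the median log2 fold change of all genes tested was 0.45 as deposited. With each library centred on the median level of the genes tested, 3 were higher (Plin2, Npc2 and Mylip) and 0 lower, where 10.4% of all genes were higher and 10.8% lower. At an unadjusted limma p under 0.05, 7 were higher and 0 lower on that scale. On the TPM scale (the same sum in each library) 0 passed, where 1.03% of all genes were higher and 19.1% lower, and 1 was higher and 1 lower at an unadjusted limma p under 0.05. With equal total reads in each library 0 passed, where 219 of the 10927 genes were higher and 1697 lower. At an unadjusted limma p under 0.05, 3 of the 9 genes were higher and 0 lower with equal total reads. Centred on the 14 homeostatic microglia markers, 0 of the 9 genes were higher, also at an unadjusted limma p under 0.05, and 2 were lower: Npc1 at -0.78 (limma adjusted p 0.0233) and Nr1h2 at -0.78 (limma adjusted p 0.0153). By that scale 0.201% of all genes were higher and 49.4% lower.

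On the microglia-centred scale the other 7 genes lay between -0.33 and 0.15. Npc2 was at 0.15, Mylip at 0.07, Plin2 at 0.00, Soat1 at -0.10, Lipa at -0.14, and Lpcat3 and Pnpla2 at -0.33 each, none of them past the test. The microglia markers rose by a median of 1.24 on the deposited scale, more than 8 of the 9 genes did. The order of the 9 genes, from Npc2 to Nr1h2, was the same on each of the 5 scales, since a scaling shifts all genes of a library together.

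**Figure D3:**
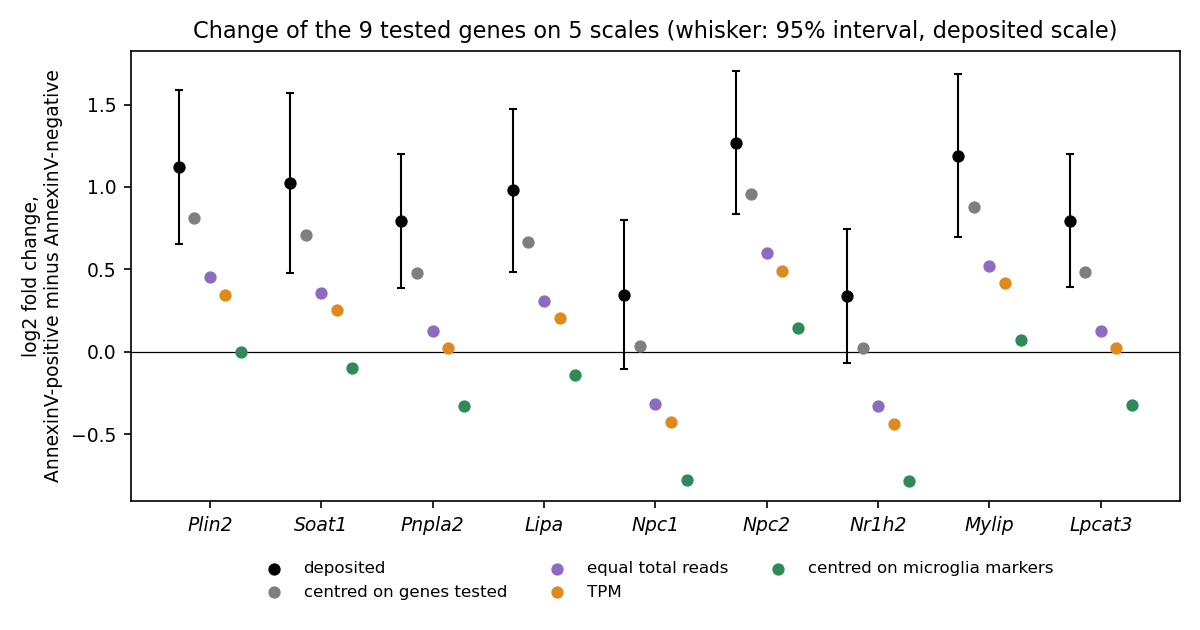
Log2 fold change, AnnexinV-positive minus AnnexinV-negative, of the 9 tested genes on 5 scales (colours); whiskers are the 95% interval on the deposited scale. Deposited values run from 0.34 to 1.27, and centred on microglia markers from -0.78 to 0.15, with Npc1 and Nr1h2 lowest on every scale.

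Besides the 10 genes, 73 further genes of the same processes were listed, of which 54 reached the minimum level: 31 were higher and 8 lower in AnnexinV-positive cells (limma, adjusted p under 0.05 over all genes), with a median of 0.69. Of all genes tested 30.8% were higher and 9.26% lower, with a median of 0.45. Centred on all genes tested, 8 of the 54 were higher and 10 lower, where 10.4% of all genes were higher and 10.8% lower. On the TPM scale 2 were higher and 13 lower, where 1.03% and 19.1% of all genes were. Centred on microglia markers 0 were higher, also at an unadjusted limma p under 0.05, and 22 lower. By that scale 0.201% of all genes were higher and 49.4% lower. Without AnnexinV-positive replicate 1, 14 were higher, and without AnnexinV-positive replicate 2, 13.

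Genes of droplet coats, synthesis and lipolysis were higher in 5 of 12 tested (of 21 listed) and lower in 1, with a median of 0.56, near the 30.8% higher, 9.26% lower and median of 0.45 of all genes tested. Hilpda, a droplet protein that inhibits Pnpla2's lipase, was at 17.3 and 24.2 RPKM in AnnexinV-positive and 11.4 and 8.23 RPKM in AnnexinV-negative libraries and rose by 1.07 on the log2 scale. Nceh1, a cholesterol ester hydrolase outside the lysosome, rose by 0.87 and the droplet coat gene Plin3 by 0.84. All 3 turned slightly negative when centred on microglia markers, at -0.05, -0.25 and -0.28 in that order. G0s2, another inhibitor of that lipase, fell by 2.43 on the log2 scale, with 0.418 and 0.373 RPKM in AnnexinV-positive and 3.05 and 2.16 RPKM in AnnexinV-negative libraries (limma adjusted p 0.00204), and was lower on each of the 4 other scales. Plin1, Plin4, Plin5, Cidea, Cideb and Cidec, which encode other droplet coat proteins and CIDE proteins, had means under 0.1 RPKM over the 4 libraries. Of the other untested genes, Pnpla3 was lower without overlap, at 0.131 and 0.133 RPKM in AnnexinV-positive against 0.705 and 0.598 in AnnexinV-negative libraries. Hsd17b13 was also lower without overlap (0.108 and 0.113 against 0.251 and 0.268 RPKM), and Soat2 was higher without overlap (0.206 and 0.352 against 0.173 and 0.121 RPKM).

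LXR partners, corepressors and targets moved in both directions: 11 of 22 were higher and 6 lower, and all 22 were tested. Over all genes tested 30.8% were higher and 9.26% lower. Apoc1 and Apoe, apolipoproteins, rose by 1.65 and 1.59 on the log2 scale, and Lpl, lipoprotein lipase, by 1.38. The 3 were positive on all 5 scales, but none passed when centred on microglia markers (limma adjusted p 0.0945, 0.125 and 0.292 in that order). Lpl also did not pass on the TPM scale (limma adjusted p 0.0711). Apoe had an RPKM of 9231 and 10268 in AnnexinV-positive and 3223 and 3235 in AnnexinV-negative libraries. Abca1, the cholesterol efflux pump, named after its value was seen, was at 50.9 and 30.1 RPKM in AnnexinV-positive and 15.4 and 25.1 RPKM in AnnexinV-negative libraries, a log2 fold change of 0.99 (limma adjusted p 0.0471). Rxra, which encodes one of the RXR partners of LXR, was also named after its value was seen and rose by 1.08 on the log2 scale. Centred on microglia markers, Abca1 was at -0.13 and Rxra at -0.04.

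The 6 lower genes of that list were Scd1 (-3.93), Vldlr (-1.78), Lrp8 (-1.69), Scd2 (-1.55), Pltp (-1.28) and Srebf1 (-1.19 on the log2 scale), all negative on the other scales too. Scd1 and Scd2 encode stearoyl-CoA desaturases, Srebf1 the SREBP-1 regulator of fatty acid synthesis and Pltp a phospholipid transfer protein. Scd1 had an RPKM of 0.238 and 0.108 in AnnexinV-positive and 3.01 and 5.12 in AnnexinV-negative libraries, and Srebf1 8.11 and 8.56 against 19.5 and 18.8 in the same order of groups. Of the receptors that Mylip's product marks for breakdown, Vldlr had 0.548 and 0.345 RPKM in AnnexinV-positive and 1.76 and 1.74 RPKM in AnnexinV-negative cells, and Lrp8 0.519 and 0.441 RPKM against 1.63 and 1.92 RPKM. In the same libraries tested markers of several other cell types were lower by median log2 fold change. Mature oligodendrocyte markers were at -4.96, oligodendrocyte precursor markers at -4.19 (6 of 7 tested lower, 9 listed) and neuron markers at -3.58 (2 of 3 tested, 10 listed). Mural or fibroblast markers were at -3.11 (4 of 4 tested, 10 listed), endothelial markers at -2.14 (5 of 7 tested, 9 listed) and astrocyte markers at -1.27. In the precursor list Cspg4 (0.55) did not pass, and Pdgfra and Vcan, not tested, were lower without overlap. The summed RPKM of the whole precursor list was 17.0 to 19.7 in AnnexinV-positive against 127 to 160 in AnnexinV-negative libraries, the latter mostly from Olig1, Olig2, Sox10 and Bcas1. In the same order of groups, whole lists summed to 1.97 to 2.09 against 10.8 to 16.1 for neurons and 3.27 to 4.77 against 41.9 to 46.8 for mural cells or fibroblasts. For endothelium the sums were 8.30 to 11.4 against 36.0 to 39.5, and for astrocytes 36.4 to 53.5 against 82.0 to 113. Untested mural or fibroblast genes were lower without overlap in Abcc9 and Col1a2, higher in Anpep, and overlapped in Col1a1, Dcn and Lum. Untested neuron genes were lower without overlap in Syt1, Nefl, Nefm and Gad1, higher in Rbfox3, and overlapped in Slc17a7 and Camk2a. The part of these cell types in the 6 decreases was not tested.

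Lysosomal and endosomal sterol genes outside the 10 were higher in 12 of 17 tested (of 21 listed) and lower in 1, with a median of 0.75. All genes tested had 30.8% higher, 9.26% lower and a median of 0.45. Gramd1a, a sterol transfer protein of the endoplasmic reticulum, rose by 1.20, and Tfe3 and Mitf, transcription factors of the family that drives lysosomal genes, by 1.16 and 1.08 on the log2 scale. Gramd1a was at 57.3 and 56.8 RPKM in AnnexinV-positive and 20.6 and 29.8 RPKM in AnnexinV-negative libraries. Osbpl1a, an oxysterol-binding protein, fell by 0.65 (limma adjusted p 0.0483). On the TPM scale 0 of this list were higher, also at an unadjusted limma p under 0.05, where 1.03% of all genes were higher at the adjusted threshold. Mitf turned to -0.04 when centred on microglia markers.

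Of 9 oxysterol and sterol enzymes, 3 were tested and all were higher, where 30.8% of all genes tested were. Ch25h, which makes 25-hydroxycholesterol, an LXR ligand, was at 50.9 and 70.2 RPKM in AnnexinV-positive and 26.9 and 37.5 RPKM in AnnexinV-negative libraries and rose by 0.91. Cyp27a1, which makes 27-hydroxycholesterol, rose by 0.90, and Ebp, an isomerase of cholesterol synthesis, by 0.75 on the log2 scale. Centred on microglia markers they were at -0.21, -0.23 and -0.37 in that order, and Ebp was at -0.02 on the TPM scale.

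**Figure D4:**
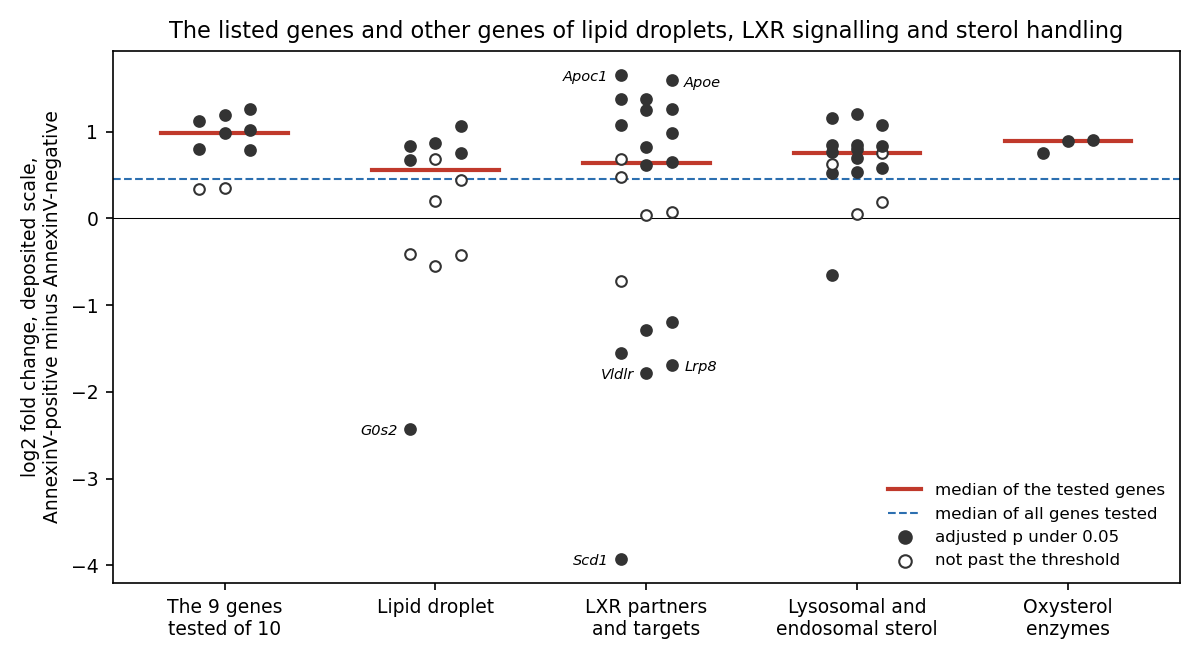
Log2 fold change on the deposited scale of the 9 tested genes and of the 54 tested genes of 4 other lists; filled points passed limma at an adjusted p under 0.05, red bars are list medians and the dashed line is the median of all genes tested (0.45). The listed genes have a median of 0.98, and the LXR list spreads most, from Scd1 at -3.93 to Apoc1 at 1.65.

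Genes whose profile over the 4 libraries was most like that of Npc2, by Euclidean distance between log2(RPKM + 0.1) values after subtracting each gene's mean, were Arl4c (distance 0.020), Sparc (0.059) and Haus4 (0.062) among 9850 genes searched. Sparc, a secreted matrix protein, is one of the listed homeostatic microglia markers; it was at 458 and 525 RPKM in AnnexinV-positive and 196 and 212 RPKM in AnnexinV-negative libraries. For Nr1h2, the tested gene with the smallest change, they were Rab11b (0.019), Gatc (0.026) and Impa1 (0.027). With 4 libraries in 2 groups, such likeness describes mainly the group difference and the order of libraries within a group.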

How the data were processed

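Cells of the corpus callosum were sorted by annexin V, and libraries were made with a TruSeq RNA v2 kit, per the labels' protocols. Reads were aligned with GSNAP to mm10, per the submitters' processing notes. Aligner version, counter, annotation and read filters were not given in the sources used here. The deposited value for each gene was read as RPKM that the authors had scaled between libraries: scaled by exonic length, values below 100 reads came within 0.01 of whole reads in 66.9% to 74.5% of cases, depending on the library. Read numbers are estimates from that step. GENCODE vM21 (GRCm38) gave symbols for 52403 of 52636 genes.

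The 10927 genes that reached 1 RPKM in 2 libraries were tested on log2(RPKM + 0.1) with limma 3.58.1 (R 4.3.3, intensity trend, no covariate), with Benjamini-Hochberg adjustment over all of them and a threshold of 0.05. The steps were tested on simulated data. The 10 genes, the 4 pathway lists and the marker lists were chosen with earlier results of these data known. Named were all 10 genes, the 3 largest changes in each direction per pathway list and, for likeness, 3 genes each for the members with the largest and smallest change. Abca1, Rxra, Scd2, Pltp and Srebf1 were named after their values were seen. Alternatives were pseudocounts of 1 and 0.01, other filters, 4 other scales, no trend, a replicate block and each library left out. Protein sequences were not used here. One result of a pathway list is not reported here.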

Additional observations from a re-analysis of the deposited data

How the results depend on the processing

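Among the 9 tested genes, 7 stayed higher and 0 lower with either other pseudocount, with no filter, with a mean RPKM of at least 5, without an intensity trend and with the replicate number as a block. Centred on all genes tested 3 were higher, and on the TPM scale, with equal total reads and centred on microglia markers 0, 0 and 0, with 2 lower on the last. Leaving out a library gave 4 to 7. Values that changed sign were Npc1 (-0.43 TPM, -0.32 equal reads, -0.78 microglia-centred), Nr1h2 (-0.44, -0.33 and -0.78 on the same scales), and, microglia-centred, Soat1 (-0.10), Lipa (-0.14), Lpcat3 (-0.33) and Pnpla2 (-0.33). A scale shifts every gene of a library together.

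Of the other 54 pathway genes, 31 were higher and 8 lower. With no filter 14 were higher, as more genes were tested; centred on all genes 8, TPM 2, equal reads 4, microglia-centred 0, and 13 to 29 with a library left out. Lower were 3 with a mean RPKM of at least 5, 13 on TPM and 22 microglia-centred. Over all genes, 3364 were higher and 1012 lower. Higher were 1865 with no filter, 1133 centred, 113 on TPM, 219 with equal reads, 22 microglia-centred and 1297 to 3356 with a library left out. Lower were 2489, 2091, 1697 and 5393 with no filter, TPM, equal reads and microglia-centred, and 190 with a mean RPKM of at least 5. The labels do not say what a replicate number stands for, and deviations of same-numbered libraries correlated at -0.215, so the numbers were not taken as pairs; with the replicate block 7 of the 9 genes, 21 pathway genes and 2443 genes in all were higher.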
